A study of Arabidopsis thaliana with 4 samples.

Results

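The Al response of Arabidopsis thaliana was examined on the slide that carried the replicate 2 arrays, which are 2 of the 4 Agilent 2-colour arrays of the series, 1 of the ecotype Columbia-0 (Col-0, wild type) and 1 of the AvSAMS1 expressing transformant (AvSAMS1 TF). Every array compared the Al-treated plants of a line, labelled with Cy5, with its untreated plants, labelled with Cy3, so that each probe gives 1 relative fold (+Al/-Al), used here as its log2 ratio. Plants of both lines were grown in soil to an age of about 3 weeks, and the treated plants were kept in aluminium chloride at pH 4.2 for 2 d. The untreated plants of replicate 2 carry a time of 2 d in the labels and those of replicate 1 a time of 0 d. The labels give the Al dose as 300 mM and the study's methods as 300 μM, and this difference could not be settled from the values. The AvSAMS1 TF plants carry a cDNA of the grass Andropogon virginicus L. for S-adenosyl methionine synthetase behind the 35S promoter, and the line on the arrays, TF6, is 1 homozygous line with 1 insertion. Each line had 1 array on this slide and the dyes were not exchanged, so a dye effect of a probe and an effect of Al cannot be told apart.

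A probe was kept if it was well above background in both channels on both arrays, which held for 32032 of 43603 probes and for 19818 of 25455 loci on the array. Each locus was represented by its brightest probe. Of these loci, 831 (4.19%) were at or past 2-fold higher in Al-treated plants on both arrays and are called induced here, and 636 (3.21%) were at or past 2-fold lower on both and are called repressed. Together these 1467 loci are the members described below, and they were chosen by the ratios themselves, so their counts are a description. Of the 1467, 777 have no gene symbol in the TAIR10.1 gene table and are given by locus only. In 286 of them several probes passed, all of which were past 2-fold the same way in 183, and in 0 did probes go past 2-fold in opposite directions.

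Al3+ in acid solution damages the root apex, and A. thaliana answers it with malate release through ALMT1, with redistribution of Al by transporters of the ALS type, and with a wide change of gene-expression. STOP1, a zinc finger transcription factor, drives ALMT1, ALS3 and several genes for cell wall and pH homeostasis. Genes for glutathione transferases, protein folding, ion uptake and defence also commonly respond to Al.

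The 4 arrays differed in quality. Between 62.06% and 69.74% of probes were well above background in a channel of the replicate 1 arrays, against 77.54% to 79.52% on the replicate 2 slide. The SD of the log2 ratio over all probes was 0.88 and 0.85 on the replicate 2 arrays and 0.91 (Col-0) and 1.14 (AvSAMS1 TF) on replicate 1. Over the probes kept, the log2 ratios of the 2 lines on the replicate 2 slide had a Pearson's r of 0.80 across probes, which share the slide and are not replicates. Between the replicates of a line this r was 0.39 for Col-0 and -0.23 for AvSAMS1 TF. With the Col-0 array of replicate 2, AvSAMS1 TF replicate 1 had an r of -0.25, so that it ran against both replicate 2 arrays. Whether dyes or samples were exchanged on that array could not be settled here, and this limits the direction of every ratio given for AvSAMS1 TF replicate 1.

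The tissue is labelled as whole plant, while the labelling protocol names shoots. All 45 nuclear photosynthesis genes of a fixed list were well above background in every channel. Of 17 root marker loci, all 17 were well above background in untreated and 11 in Al-treated Col-0 of replicate 2, and 15 and 9 in AvSAMS1 TF, where CASP5 and the root cap gene SMB were not above it in either. Their summed processed signal was 14113 without and 4678 with Al in Col-0, and for AvSAMS1 TF 5695 without and 3330 with Al. Transcripts known from roots were thus detected in these samples, with a lower summed signal in the Al-treated ones of replicate 2. On replicate 1, between 5 and 6 of the 17 loci were above background in any channel, and the sum went from 1512 to 5296 with Al in Col-0 and from 2414 to 824 in AvSAMS1 TF. A smaller share of root tissue and less RNA per root cell cannot be told apart in such samples, and the part of either in the results below was not tested.

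When the mean log2 ratio of both lines was tested against 0 with limma (2 arrays, 1 residual degree of freedom), 1841 of 32032 probes (5.75%) were called higher and 1933 (6.03%) lower at an adjusted p of 0.05. Over the loci this was 1252 of 19818 (6.32%) higher and 1195 (6.03%) lower. Of the induced loci 729 and of the repressed loci 570 were called, which adds no support, since the same ratios chose them. The lowest adjusted p was 0.0235 and was shared by many probes. In this fit, eBayes draws the variance of each probe towards a value common to all probes. The SE given below are of this moderated kind and can differ from the spread of a probe's 2 ratios. Without moderation, a one-sample t-test called 2 probes higher and 1 lower. The p-values rest only on spread between 2 lines on 1 slide and hold no repeat of the experiment. In a fit of all 4 arrays with line and the replicate block, 0 probes were called, with the lowest adjusted p at 0.363. "Rose" and "fell" below refer to the limma test on the replicate 2 slide alone.

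**Figure D1:**
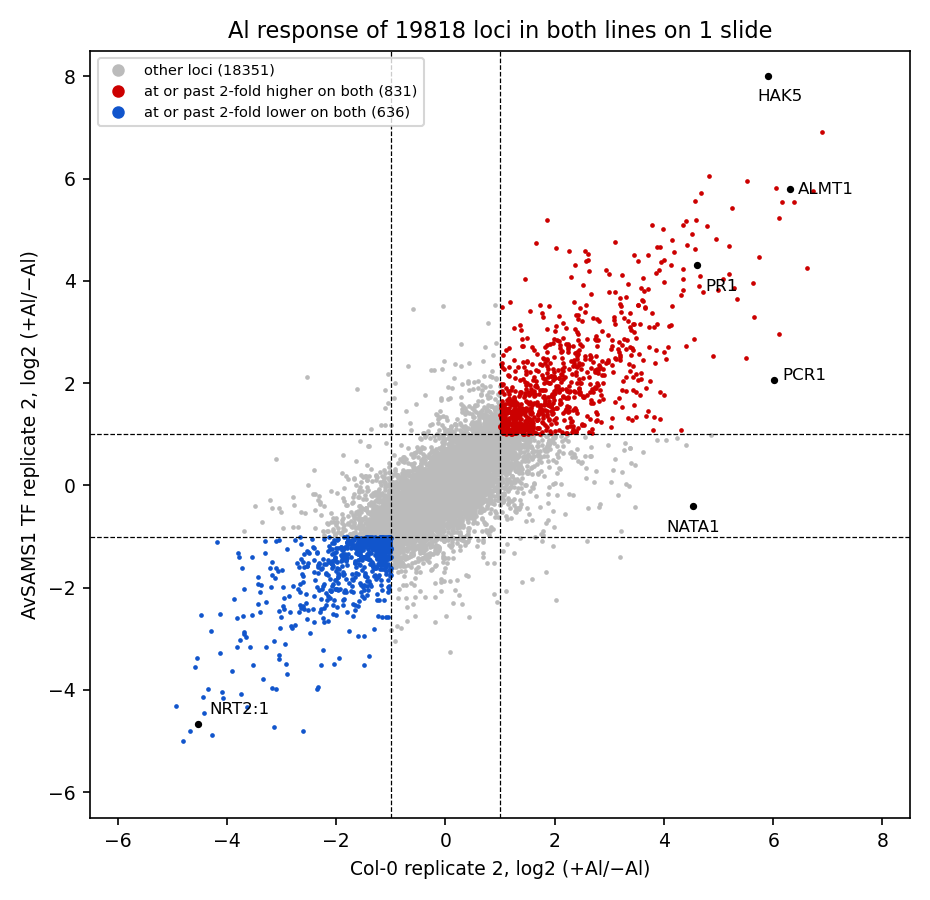
Log2 (+Al/-Al) of 19818 loci on the Col-0 (x axis) and AvSAMS1 TF (y axis) arrays of the replicate 2 slide, 1 point per locus, with dashed lines at 2-fold. The 831 induced loci (red) and 636 repressed loci (blue) lie along the diagonal, while NATA1 and PCR1 lie far from it.

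By the choice of loci, the members moved the same way in both lines. The induced loci had a median log2 ratio of 1.91 in Col-0 and 1.79 in AvSAMS1 TF, and the repressed loci of -1.56 and -1.43, while all loci had medians of -0.02 and -0.01. Past 4-fold on both arrays were 262 induced and 100 repressed loci, and past 16-fold 33 and 9. In Col-0 alone 1360 loci were past 2-fold higher and 1261 lower, and in AvSAMS1 TF alone 1199 and 1036. The shared loci made up 61.1% of the higher loci of Col-0 and 69.3% of those of AvSAMS1 TF, and 50.4% and 61.4% of the lower loci. Only 23 loci were past 2-fold in opposite directions, 14 of them higher in Col-0. The number of repressed loci depended on the background correction, since normexp with loess gave 328 and normexp with median centring 206 in place of 636.

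The largest increase was that of HAK5, the high-affinity K+ transporter. Its processed signal went from 680 to 40773 in Col-0 and from 194 to 50074 in AvSAMS1 TF, a log2 ratio of 5.91 and 8.01 (mean 6.96 ± 0.59 SE, adjusted p = 0.034). On replicate 1 the ratio was 8.05 in Col-0 and -0.15 in AvSAMS1 TF, so HAK5 was high on 3 of the 4 arrays. PGAZAT, a polygalacturonase of abscission and dehiscence zones also known as ADPG2, had log2 ratios of 6.89 and 6.91 (mean 6.90 ± 0.10, adjusted p = 0.0235), from signals of 28.5 and 96.9 in untreated plants. ALMT1, the Al-activated malate transporter, went from 110 to 8708 in Col-0 and from 91.2 to 5055 in AvSAMS1 TF, which are log2 ratios of 6.31 and 5.79 (mean 6.05 ± 0.17, adjusted p = 0.0235). ALMT1 was also the only one of the 12 most induced loci past 2-fold higher on both replicate 1 arrays, with 7.78 in Col-0 and 4.10 in AvSAMS1 TF.

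The other 9 of these 12 had mean log2 ratios from 5.34 to 6.24, and all 12 rose. At5g38200 (6.72 and 5.76) and At2g38240 (6.17 and 5.54) carry no name in the gene table. At3g22910, an autoinhibited Ca2+ ATPase named ACA13, had 6.39 and 5.55, and AATP1, an AAA-type ATPase, had 6.05 and 5.82. GSTU3, a tau class glutathione transferase, had 6.11 and 5.23. MAN1, an endo-beta-mannanase that cuts cell wall mannan, was higher in AvSAMS1 TF (6.06) than in Col-0 (4.83), and scpl30, a serine carboxypeptidase-like protein, lower (4.26 against 6.62). At1g51830 had 5.52 and 5.96 and At4g09300 had 5.25 and 5.42. On Col-0 replicate 1 these 9 loci were between 2.61 and 7.14, whereas on AvSAMS1 TF replicate 1 the 8 that were measured were between -2.63 and -0.45.

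**Figure D2:**
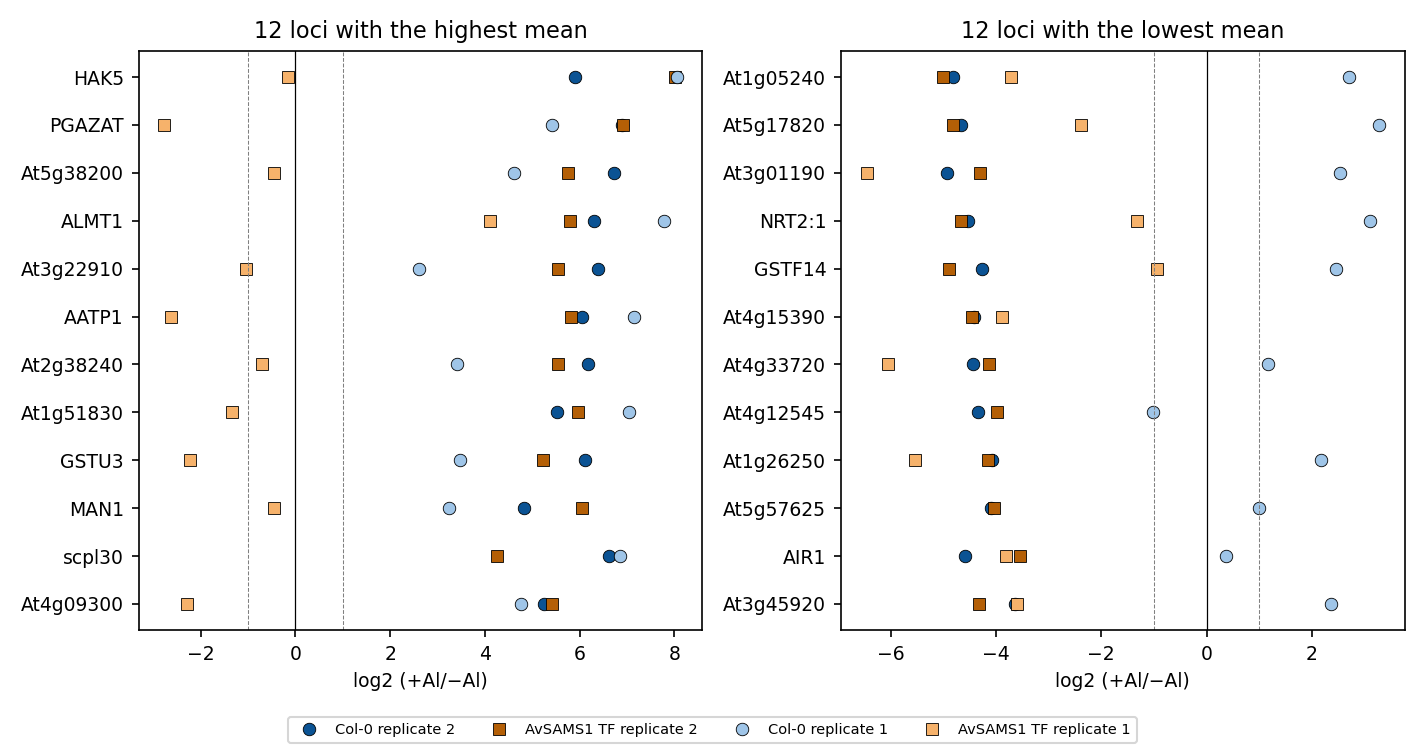
Log2 (+Al/-Al) of the 12 loci with the highest (left) and the 12 with the lowest (right) mean on the replicate 2 slide, on each of the 4 arrays; a replicate 1 point is drawn where the locus was well above background in at least 1 channel. ALMT1 lies right of the 2-fold line on all 4 arrays, while At1g05240 is below -3 on 3 arrays and at 2.70 on Col-0 replicate 1.

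Among the repressed loci, At1g05240 had the lowest mean. Its signal went from 5565 to 199 in Col-0 and from 1166 to 36.5 in AvSAMS1 TF, log2 ratios of -4.81 and -5.00 (mean -4.90 ± 0.11, adjusted p = 0.0235). At5g17820 (-4.67 and -4.81) and At3g01190 (-4.94 and -4.31) followed, and none of these 3 loci has a symbol in the gene table. NRT2:1, the high-affinity nitrate transporter of roots, went from 9950 to 430 in Col-0 and from 4922 to 194 in AvSAMS1 TF (log2 ratios -4.53 and -4.67, mean -4.60 ± 0.11, adjusted p = 0.0235). GSTF14, a phi class glutathione transferase, had -4.27 and -4.89, and AIR1, a gene first found as auxin-induced in root cultures, had -4.58 and -3.55 (mean -4.07 ± 0.30, adjusted p = 0.0318). The others of these 12, At4g15390, At4g33720, At4g12545, At1g26250, At5g57625 and At3g45920, had means from -4.43 to -3.99, and all 12 fell. On AvSAMS1 TF replicate 1 the 10 measured were all below 0 (-6.46 to -0.95), whereas on Col-0 replicate 1 most were above it, such as NRT2:1 at 3.1. None of these 12 loci was past 2-fold lower on all 4 arrays while also above background in at least 1 channel on each.

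**Figure D3:**
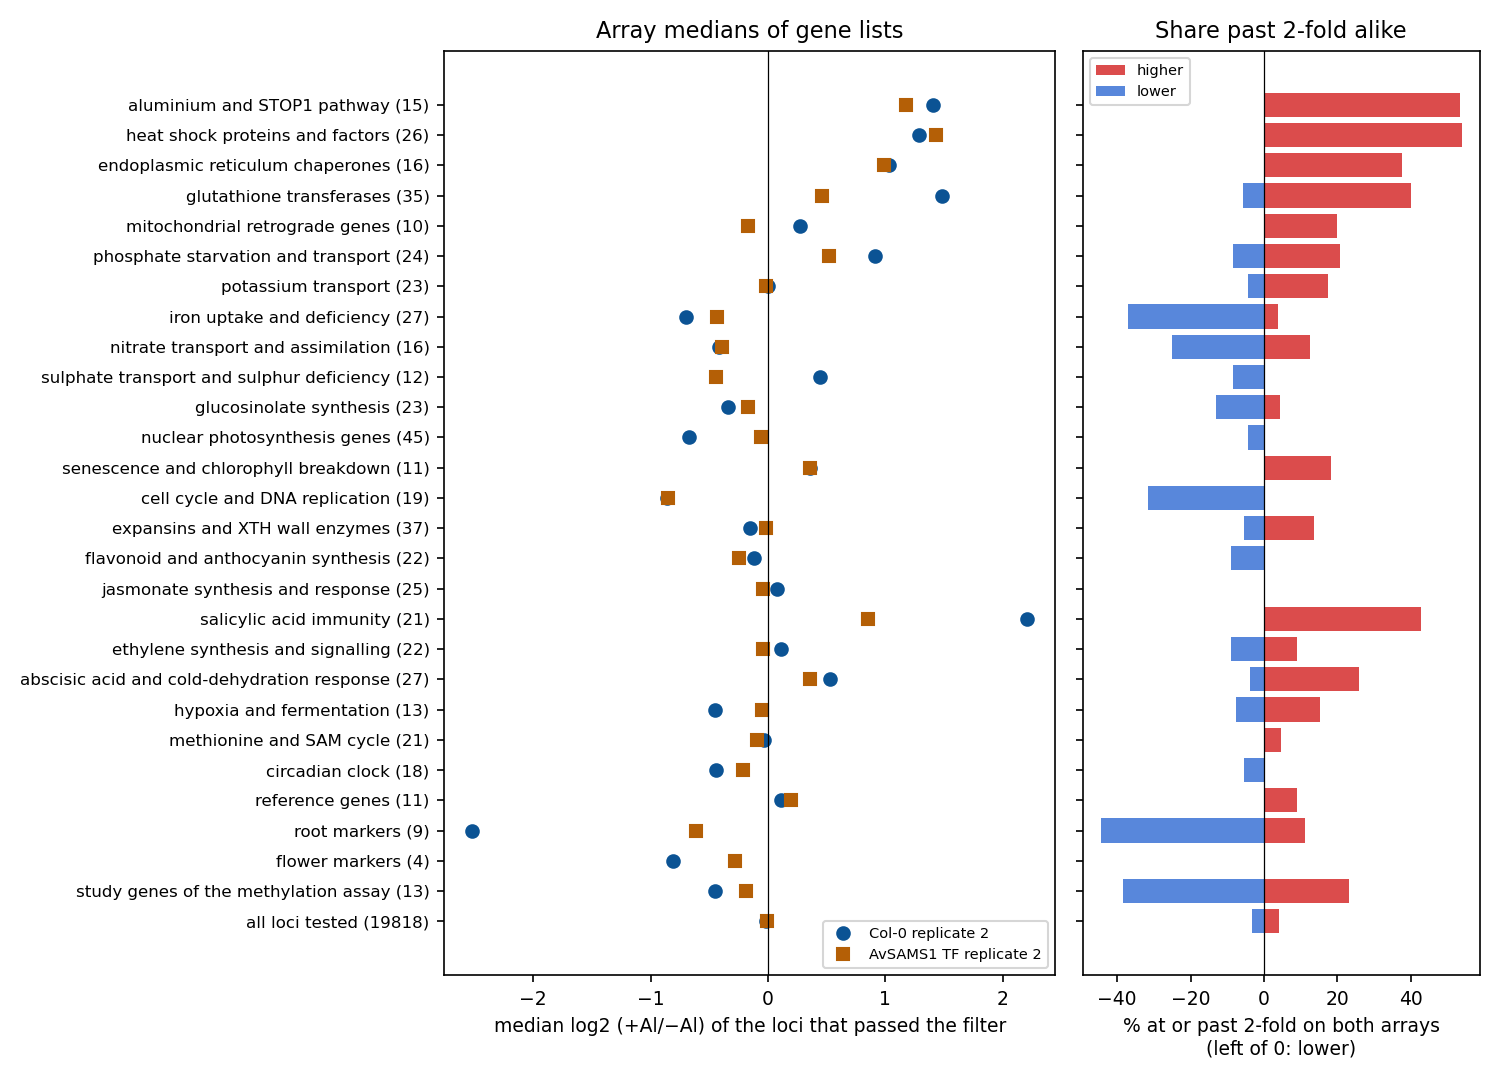
Left, the median log2 (+Al/-Al) of the loci of each gene list on the 2 arrays of the replicate 2 slide, with the number of loci that passed the filter in brackets. Right, the % of these loci at or past 2-fold on both arrays, higher to the right and lower to the left; all loci tested are the lowest line, with 831 higher and 636 lower of 19818.

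Genes of Al transport and of the STOP1 pathway were mostly higher with Al on the replicate 2 slide. Of 15 loci, 8 were past 2-fold higher on both arrays and 0 lower, and 9 rose and 0 fell. The lists were chosen with earlier results of these data known, so their counts are a description. Beside this and each later list stand the shares of all loci. These were 4.19% induced, 3.21% repressed, 6.32% that rose and 6.03% that fell. The list median was 1.41 in Col-0 and 1.18 in AvSAMS1 TF, 1.20 on Col-0 replicate 1 and -0.61 on AvSAMS1 TF replicate 1. ALS3, an ABC-type transporter needed for Al tolerance, went from 1960 to 8512 in Col-0 and from 1585 to 9677 in AvSAMS1 TF, log2 ratios of 2.12 and 2.61 (mean 2.36 ± 0.17, adjusted p = 0.0318). PGIP1, an inhibitor of polygalacturonases in the cell wall, had 3.82 and 3.1 (adjusted p = 0.0299), and its neighbour PGIP2, which is similar in sequence, had 0.58 and 0.79 (adjusted p = 0.0537). GDH2, a glutamate dehydrogenase, had 2.73 and 2.21 and rose (adjusted p = 0.0318), and so did At1g51340 with 2.40 and 2.31 (adjusted p = 0.0235) and At5g22890 with 1.66 and 1.96 (adjusted p = 0.0318). The wall-associated kinase WAK1 was past 2-fold with 2.64 and 1.30 but missed the threshold (adjusted p = 0.0621). STOP1 itself had 0.27 and 0.10 (adjusted p = 0.307), and ABCB27, also known as ALS1, had 0.41 and 0.22 (adjusted p = 0.148).

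Genes of glutathione transferases, which conjugate glutathione to reactive compounds, moved mostly upwards. Of 35 that passed, 14 were induced and 2 repressed, and 11 rose and 4 fell. Beside GSTU3, the largest were GSTU25 (3.88 and 4.66, mean 4.27 ± 0.24, adjusted p = 0.0266), GSTU11 (4.55 and 2.86, adjusted p = 0.0419) and GSTU8 (2.57 and 4.38, adjusted p = 0.0469), all of the tau class. GSTU25 was also past 2-fold on both replicate 1 arrays, with 1.33 in Col-0 and 2.40 in AvSAMS1 TF. The repressed members were of the phi class, GSTF14 and GSTF11 (-2.02 and -1.41). The list median differed between the lines, 1.48 in Col-0 and 0.46 in AvSAMS1 TF. Several of these genes lie in tandem and are near-identical, so a probe may read a neighbour.

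Heat shock genes were induced in both lines. Of 26 that passed, 14 were past 2-fold higher on both arrays and 0 lower, and 14 rose and 1 fell, the heat shock factor HSFA7A (-0.80 and -0.98). The list median was 1.29 in Col-0 and 1.43 in AvSAMS1 TF. HSP17.4, a small heat shock protein that binds unfolded proteins, went from 36.5 to 1012 in Col-0 and from 147 to 4938 in AvSAMS1 TF, log2 ratios of 4.79 and 5.07 (mean 4.93 ± 0.13, adjusted p = 0.0235). HSP17.6A had 4.57 and 4.63, HSP17.6II had 3.52 and 4.38 and At1g53540 had 3.53 and 3.53, and all of them rose. At1g07400, annotated in the study as a class I HSP20, had 2.55 and 3.40 (mean 2.97 ± 0.26, adjusted p = 0.0343). HSP101, the chaperone that resolves protein aggregates, was past 2-fold (1.40 and 2.73) but missed the threshold (adjusted p = 0.0584). The list median was above 0 on all 4 arrays, with 0.68 in Col-0 and 1.21 in AvSAMS1 TF on replicate 1. Small heat shock genes are similar in sequence, and cross-hybridisation among them was not tested.

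Genes of chaperones of the endoplasmic reticulum moved together on the replicate 2 slide. All 16 were above 0 on both arrays and 14 rose, with means from 0.79 to 3.20 among those that rose, and 6 were past 2-fold. BIP3, an inducible HSP70 of this compartment, had 3.09 and 3.30 (mean 3.20 ± 0.12, adjusted p = 0.0235), and its near-identical paralogs BIP1 and BIP2 had means of 1.15 and 1.20. ATERDJ3A had 1.85 and 2.02 (adjusted p = 0.0278) and SDF2 had 1.27 and 1.26 (adjusted p = 0.0331). With normexp and median centring, 14 in place of 6 were past 2-fold. Under that setting the median of all probes went from -0.03 to 0.19 and the mean of the list medians from 1.01 to 1.37, and the cause was not tested. The list median was 0.53 on Col-0 replicate 1 and -1.11 on AvSAMS1 TF replicate 1.

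**Figure D4:**
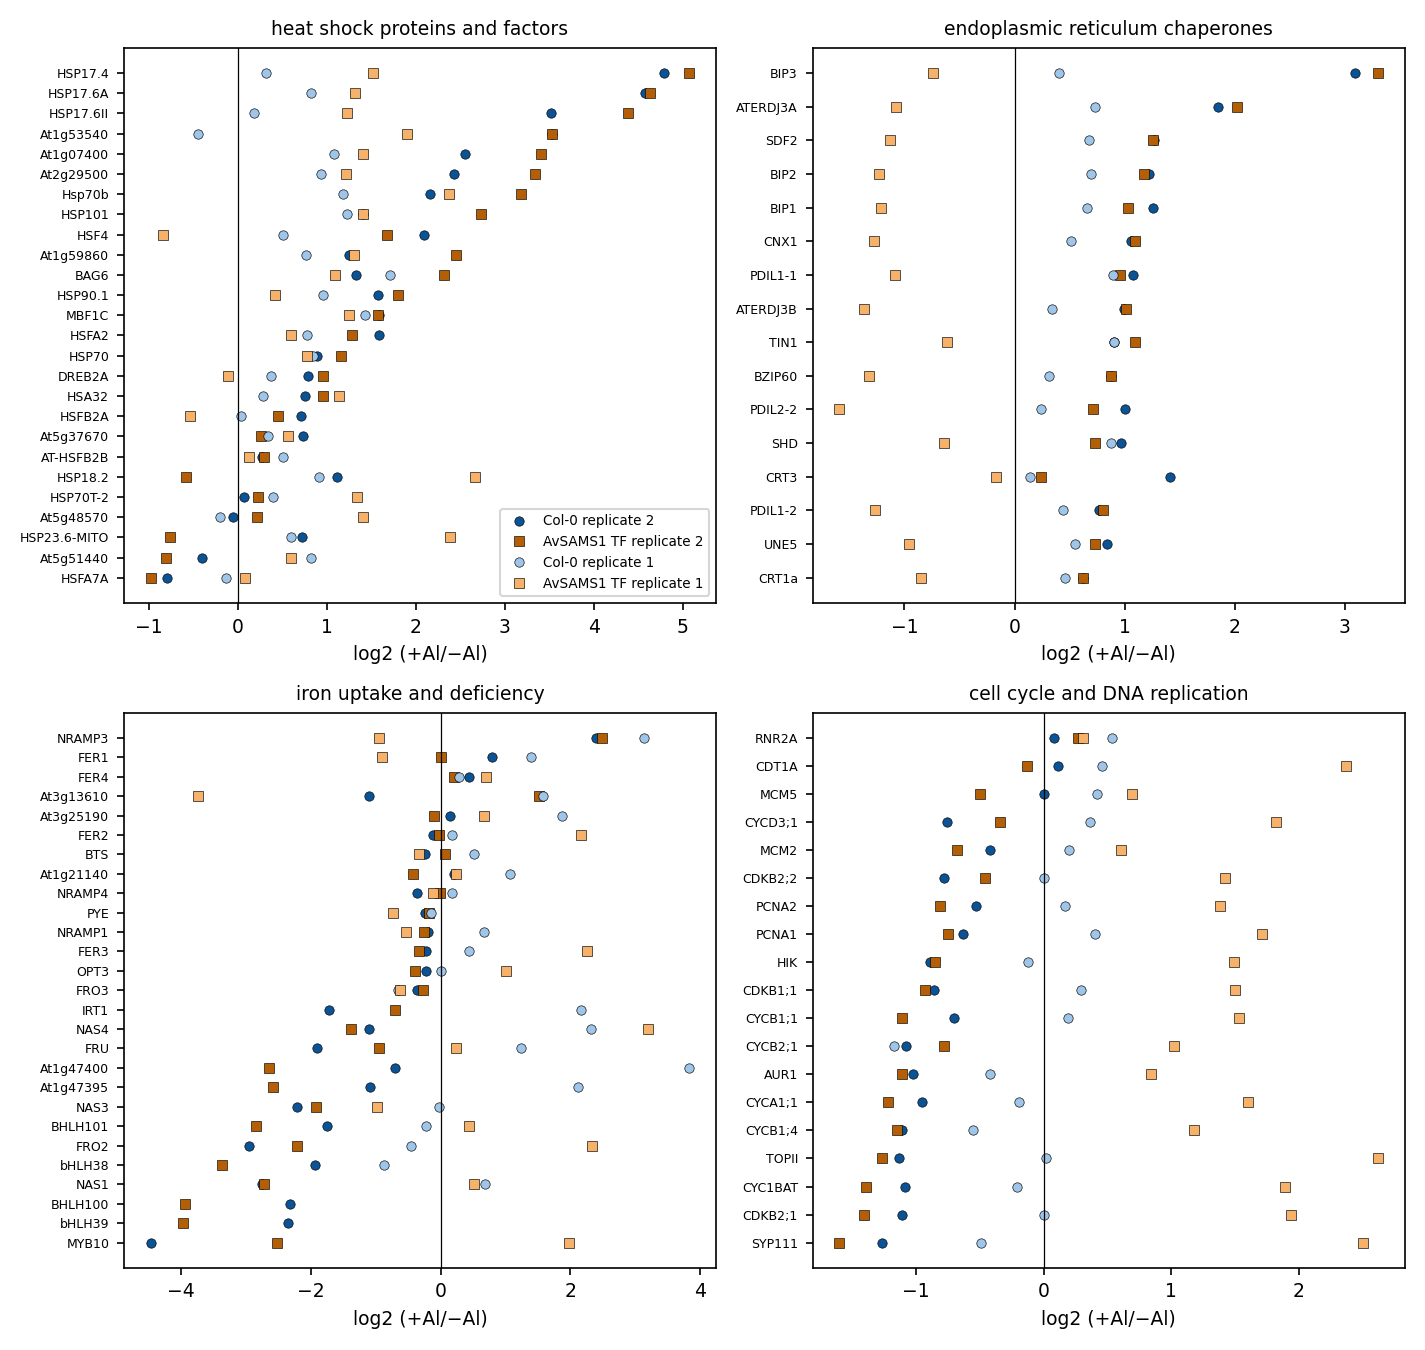
Log2 (+Al/-Al) of each locus that passed the filter in 4 gene lists, on the 4 arrays (dark points, replicate 2; light points, replicate 1, drawn where the locus was above background in at least 1 channel). Endoplasmic reticulum chaperones lie above 0 on 3 arrays and below it on AvSAMS1 TF replicate 1, while 17 of the 19 cell cycle genes are below 0 on both replicate 2 arrays, with MCM5 close to 0 in Col-0.

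Among the lists of ion nutrition, that of Fe went mostly down, while those of phosphate, nitrate and K+ held genes of both directions. Of 27 genes of Fe uptake and Fe deficiency, 10 were repressed and 1 induced, and 9 fell and 1 rose. The Fe deficiency transcription factors bHLH38 (-1.94 and -3.38, adjusted p = 0.0489), bHLH39 (-2.36 and -3.98, adjusted p = 0.0463), BHLH100 (-2.33 and -3.95, adjusted p = 0.0468) and BHLH101 (-1.76 and -2.85, adjusted p = 0.0447) all fell, each with the lower ratio in AvSAMS1 TF. MYB10, a transcription factor of the same response, fell with -4.47 and -2.53 (adjusted p = 0.0496), and the nicotianamine synthase NAS1 with -2.76 and -2.72 (adjusted p = 0.0235). FRO2, the ferric chelate reductase of the root epidermis, went from 2448 to 317 in Col-0 and from 697 to 150 in AvSAMS1 TF (mean -2.58 ± 0.23, adjusted p = 0.0349). IRT1, the main Fe2+ transporter of roots, had -1.73 and -0.70 and missed the threshold (adjusted p = 0.0856). The induced member was NRAMP3, a vacuolar metal exporter, with 2.40 and 2.48 (adjusted p = 0.0235). The list median was -0.70 and -0.43 on replicate 2 and 0.59 (Col-0) and 0.24 (AvSAMS1 TF) on replicate 1.

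Of 24 genes of phosphate starvation and transport, 5 were induced and 2 repressed, and 7 rose and 2 fell. The starvation genes PS2 (2.61 and 4.52, adjusted p = 0.0478), SPX3 (2.43 and 2.57, adjusted p = 0.0235) and PEPC1 (1.69 and 2.24, adjusted p = 0.0357) rose. In contrast, the phosphate transporters PHT1;1 (-2.27 and -3.51, adjusted p = 0.0401) and PHT1;2 (-2.24 and -3.21, adjusted p = 0.0371) fell, and they are close paralogs that probes may not separate. Both directions were also seen on replicate 1, where SPX3 had 2.79 in Col-0 and 1.57 in AvSAMS1 TF and PHT1;1 had -1.36 and -2.32.

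Beside NRT2:1, 3 of 16 nitrate genes were repressed, namely the transporters NRT2.5 (-1.50 and -3.51, adjusted p = 0.075) and NRT1.5 (-2.04 and -1.12, adjusted p = 0.055) and WR3, the partner protein NRT3.1 (-1.17 and -1.44, adjusted p = 0.0366). NIA1, a nitrate reductase, rose from a signal of 11335 to 89533 in Col-0 and from 8624 to 66501 in AvSAMS1 TF (mean 2.96 ± 0.10, adjusted p = 0.0235), and the dual-affinity transporter NRT1.1 rose with 1.39 and 1.07 (adjusted p = 0.0376). In the list of 23 K+ transport genes, 4 were induced and 1 repressed, and the median was near 0 in both lines. After HAK5 the largest was CBL1, a calcineurin B-like Ca2+ sensor, with 2.39 and 2.15 (adjusted p = 0.0252), and KAT3, a K+ channel subunit, was repressed with -1.39 and -1.54 (adjusted p = 0.0321). In the sulphate list 0 of 12 were called in either direction, with 1 past 2-fold lower, SULTR1;2 (-1.0 and -1.75, adjusted p = 0.0528). With normexp and median centring, 2 nitrate genes in place of 4 were repressed, and 0 genes of the K+ and sulphate lists.

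Genes of salicylic acid immunity were higher with Al. Of 21 that passed, 9 were induced and 0 repressed, and 12 rose and 0 fell. PR1, the pathogenesis-related marker of this pathway, went from 32.7 to 797 in Col-0 and from 50.8 to 1010 in AvSAMS1 TF, log2 ratios of 4.61 and 4.31 (mean 4.46 ± 0.13, adjusted p = 0.0235). FMO1, which makes N-hydroxypipecolic acid, had 4.10 and 3.12 (adjusted p = 0.0331), PBS3, an enzyme of salicylic acid synthesis, had 3.84 and 2.39 (adjusted p = 0.043), and the transcription factor WRKY54 had 2.50 and 2.38 (adjusted p = 0.0235). The lines were not alike over the whole list, with a median of 2.21 in Col-0 and 0.85 in AvSAMS1 TF. PR5 had 3.47 in Col-0 and -0.43 in AvSAMS1 TF, and BGL2, the glucanase PR2, had 4.40 and 0.80. On replicate 1 the list median was -0.05 in Col-0 and -1.77 in AvSAMS1 TF, and NIMIN1, an interactor of NPR1, had -1.29 and -2.49 there against 2.39 and 2.34 on replicate 2.

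The lists of other hormones were mixed. Of 27 genes of abscisic acid and dehydration, 7 were induced and 1 repressed, and 7 rose and 1 fell. RD20, a caleosin of drought-stressed leaves, had 3.44 and 2.65 (adjusted p = 0.0329) and was past 2-fold on both replicate 1 arrays, with 3.1 and 1.67. The protein phosphatases HAI1 (2.90 and 2.16, adjusted p = 0.0352) and HAI2 (2.37 and 1.82, adjusted p = 0.0346) rose. NCED3, the key enzyme of abscisic acid synthesis, had 1.40 and 2.86 (adjusted p = 0.0623). In the jasmonate list, 0 of 25 were past 2-fold alike in either direction, and 2 rose (JAZ1 and JAZ5) and 2 fell (AOC1 and AOC2). Of all loci, 6.32% rose and 6.03% fell. In the ethylene list, 2 of 22 were induced and 2 repressed, and 2 rose and 3 fell. Its median was near 0, with 0.11 in Col-0 and -0.04 in AvSAMS1 TF. The synthases of the ethylene precursor, ACS2 (2.88 and 2.00) and ACS6 (1.26 and 1.02), rose, while ACO1 (-2.08 and -1.96), an ACC oxidase, and At1g12010 (-3.03 and -2.79) fell.

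Genes of cell cycle and DNA replication were lower in both lines. Of 19, 17 were below 0 on both arrays, MCM5 by less than rounding shows in Col-0, 6 were repressed and 0 induced, 11 fell and 0 rose, and the median was -0.86 in Col-0 and -0.85 in AvSAMS1 TF. SYP111, the syntaxin KNOLLE of the cell plate, went from 3836 to 1592 in Col-0 and from 1950 to 645 in AvSAMS1 TF (mean -1.43 ± 0.14, adjusted p = 0.0362), and the kinase CDKB2;1 had -1.11 and -1.41 (adjusted p = 0.037). These differences were close to 2-fold, and 2 loci with normexp and loess and 0 with normexp and median centring were past it. On replicate 1 the list median was 0.02 in Col-0 and 1.5 in AvSAMS1 TF.

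Root marker genes were lower in the Al-treated plants, as in the summed signals above. Of the 9 that passed the filter, 4 were repressed and 1 induced, 2 fell and 1 rose, and 8 were below 0 on both arrays, with a median of -2.52 in Col-0 and -0.61 in AvSAMS1 TF, against 0.40 and -0.62 on replicate 1. These counts depended on the background correction. With normexp and loess 1 was repressed, with normexp and median centring 2, and 0 were induced under either. MYB36, a regulator of the endodermis, fell with -2.52 and -2.43 (adjusted p = 0.0235), with 3.01 and -2.34 on replicate 1, and SHV2, the root hair gene COBL9, with -2.87 and -2.17 (adjusted p = 0.0346), while WOX5 of the root stem cell niche rose with 1.57 and 1.46 (adjusted p = 0.0318). The Casparian strip gene CASP1 had -3.80 and -1.33 (adjusted p = 0.0958). Among 8 genes named root hair specific (RHS), a family chosen after its values were seen, 4 were repressed and 0 induced, with RHS13 at -4.29 and -2.85. Of the repressed uptake genes named above, NRT2:1 and FRO2 are known for roots, and a link to the lower root markers was not tested. Of the flower markers, 0 of 4 that passed were past 2-fold.

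Most photosynthesis genes were within 2-fold on the replicate 2 slide, where their summed signal went from 12359643 to 10013516 in Col-0 and from 7782264 to 8552222 in AvSAMS1 TF. On replicate 1 it went from 8412024 to 3669754 in Col-0 and from 2236911 to 4096718 in AvSAMS1 TF, and the list medians there were -1.31 and 0.84. Of 45, 2 were repressed, LHCB2.1 (-1.96 and -1.22, adjusted p = 0.0458) and LHCB2.3 (-2.35 and -1.31, adjusted p = 0.0526), and 0 were induced, with a median of -0.67 in Col-0 and -0.06 in AvSAMS1 TF. The repressed count is near the share of all loci (3.21%), and it was 0 with normexp and median centring. In the cell wall list, 5 of 37 were induced and 2 repressed, and 5 rose and 4 fell. Its median was -0.15 in Col-0 and -0.02 in AvSAMS1 TF, with 9 loci above and 16 below 0 on both arrays. The induced loci included XTR6 (3.19 and 2.45, adjusted p = 0.0332), XTH18 (2.45 and 2.64, adjusted p = 0.0235) and TCH4 (2.14 and 2.16, adjusted p = 0.0235), all xyloglucan endotransglucosylases. On replicate 1 these 3 were between 0.56 and 0.81 in Col-0 and between -1.89 and -0.66 in AvSAMS1 TF. The expansin EXPA17 fell with -3.68 and -2.86 (adjusted p = 0.0326). Of 11 senescence genes, 2 were induced and 0 repressed, 2 rose and 1 fell, and the median was 0.36 in both lines. The largest was SAG13, a senescence-associated gene, which rose with 4.04 and 2.48 (adjusted p = 0.0438). Of 10 mitochondrial retrograde genes, 2 were induced and 0 repressed, with a median of 0.27 in Col-0 and -0.17 in AvSAMS1 TF. On both arrays 4 of them were above 0 and 3 below. AOX1D, an alternative oxidase of mitochondria, rose with 3.17 and 2.60 (adjusted p = 0.03). In the list of flavonoid synthesis 2 of 22 were repressed, TT4 (chalcone synthase, -1.32 and -1.12) and FLS1 (-1.85 and -1.0), and both depended on the background correction, with 0 past 2-fold under normexp and loess.

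Transcription factors of the WRKY and NAC families, chosen after their values were seen, were found in both directions. Of 65 WRKY genes, 11 were induced and 7 repressed, beside 4.19% and 3.21% of all loci, from WRKY31 (4.15 and 4.80, adjusted p = 0.0235) to WRKY9 (-3.69 and -2.91, adjusted p = 0.0318). On replicate 1 WRKY31 had 2.69 in Col-0 and -2.47 in AvSAMS1 TF, and WRKY9 had -1.56 and -3.86. WRKY54 was below 0 on both replicate 1 arrays (-0.85 and -2.26). Of 76 NAC genes, 9 were induced, with NAC042 at 5.19 and 4.68 (adjusted p = 0.0235), and 1 was repressed, RD26 (-2.01 and -1.22, adjusted p = 0.0475). NAC042 had 2.78 in Col-0 and -3.34 in AvSAMS1 TF on replicate 1, and RD26 had -0.57 and -0.67.

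The methionine and SAM cycle, in which the introduced enzyme acts, was nearly flat. Of 21 endogenous genes, 1 was past 2-fold higher, the homocysteine methyltransferase HMT-1 (1.11 and 1.01, adjusted p = 0.0366), and the median was -0.03 in Col-0 and -0.09 in AvSAMS1 TF. This count is near the share of all loci (4.19%). The endogenous S-adenosyl methionine synthetase genes SAM1 (0.29 and 0.15, adjusted p = 0.228) and SAM-2 (-0.32 and -0.18, adjusted p = 0.196) did not pass the test. Of the 14 genes that the study chose for its DNA methylation assay, 13 passed the filter, 3 were induced and 5 repressed. Since that choice was made on these arrays, the count is not independent evidence. The internal control ACT1 (At2g37620) had -0.30 in Col-0 and 0.00 in AvSAMS1 TF (adjusted p = 0.45). Of 11 reference genes 1 was past 2-fold, UBQ10, with 1.56 and 1.19 (adjusted p = 0.0371).

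The replicate 1 arrays, which the choice of loci did not use, gave opposite pictures of the induced loci in the 2 lines. Repressed loci were past 2-fold in both directions more often than all loci on each array. On Col-0 replicate 1, 450 of 815 measured induced loci (55.2%) were past 2-fold higher, against 10.6% of all loci tested, and 26 were past 2-fold lower (3.19%, against 9.23%). Of the repressed loci 211 of 573 (36.8%) were past 2-fold lower there, against 9.23% of all loci, and 83 (14.5%) higher, against 10.6%. On AvSAMS1 TF replicate 1, however, 394 of 783 induced loci (50.3%) were past 2-fold lower, against 10.2% of all loci, and 76 (9.71%) higher, against 17.8%. There 226 of 564 repressed loci (40.1%) were higher, against 17.8% of all loci, and 132 (23.4%) lower, against 10.2%. The median of the induced loci was 1.14 on Col-0 and -1.01 on AvSAMS1 TF replicate 1, and that of the repressed loci -0.56 and 0.49.

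**Figure D5:**
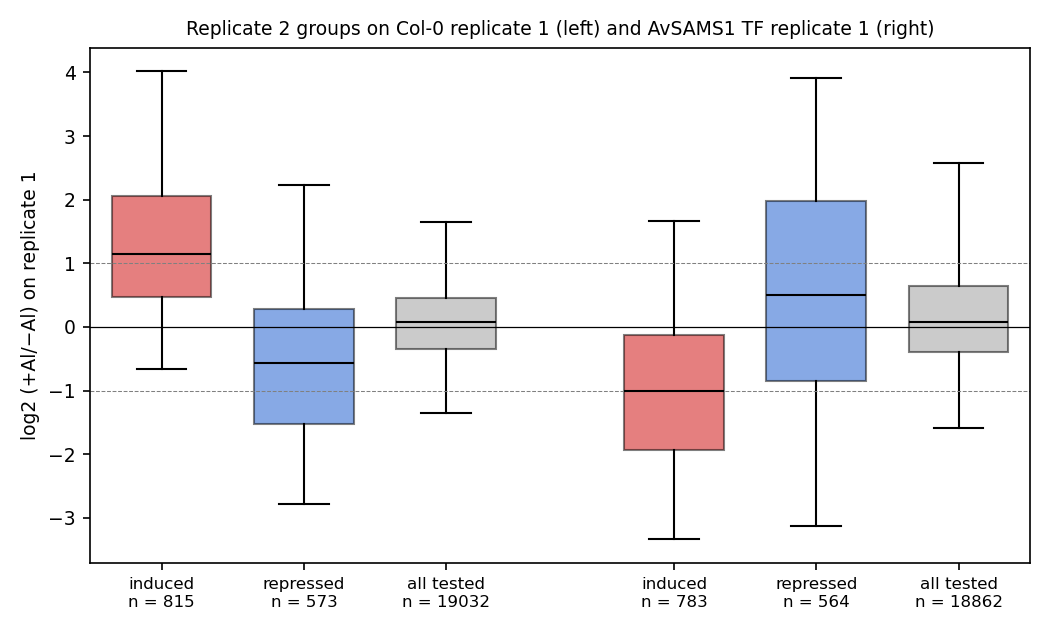
Log2 (+Al/-Al) on Col-0 replicate 1 (left) and AvSAMS1 TF replicate 1 (right) of the loci induced and repressed on the replicate 2 slide and of all loci tested, with n measured under each box; boxes are quartiles with the median, and whiskers reach the 5 and 95 percentiles. The median of the induced loci is 1.14 on the left and -1.01 on the right, while that of all loci is 0.07 on both.

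Of 780 induced loci measured on both replicate 1 arrays, 60 were past 2-fold higher on all 4 arrays, and 165 were past 2-fold higher on Col-0 and lower on AvSAMS1 TF replicate 1. Of 535 repressed loci, 57 were lower on all 4. No share of all loci under the same joint conditions is set beside these counts or the opposite counts below. They are therefore a description only. Beside ALMT1 and GSTU25, the loci alike on 4 arrays included the sulphate transporter family member SULTR3;5 (4.34, 4.03, 3.99 and 4.83 in Col-0 and AvSAMS1 TF of replicate 2, then of replicate 1), the auxin-conjugating enzyme GH3.3 (3.53, 3.52, 2.95 and 1.19) and, among the repressed, EXO70H1, an exocyst subunit (-3.66, -2.96, -5.07 and -4.33). These 3 were chosen after their values were seen. In turn, 23 induced and 27 repressed loci went past 2-fold the opposite way on both replicate 1 arrays. PCC1, a pathogen- and clock-controlled gene, had 3.11 and 3.79 on replicate 2 and -2.89 and -1.44 on replicate 1, and FTM1 (stearoyl-ACP desaturase SAD6) had -2.92 and -3.49 against 2.15 and 5.04. At1g14550 had 2.08 and 2.82 against -5.46 and -5.52. When replicate 2 minus replicate 1 was tested with limma, with line as a block, 0 of 25772 probes were called, while 3153 had an unadjusted p under 0.05. Without Col-0 replicate 1, which leaves AvSAMS1 TF replicate 1 as the only array of that replicate, 5320 probes were higher and 5120 lower, and without AvSAMS1 TF replicate 1 there were 0 and 0. Plant pool, slide and the day of the untreated plants cannot be told apart in this comparison. By the array list in the study's methods, the 2 replicate 1 arrays were on different slides. Line and slide therefore cannot be told apart within replicate 1.

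The lines differed in the size of the response at single loci. The difference (AvSAMS1 TF minus Col-0) had an SD of 0.49 over all loci and was past 4-fold at 173 loci, 69 of them higher in AvSAMS1 TF. With 1 array per line on the slide these differences have no test. The lowest was that of NATA1, an N-acetyltransferase, which went from 123 to 2854 in Col-0 but was 19795 in untreated and 14850 in Al-treated AvSAMS1 TF, log2 ratios of 4.54 and -0.41. On replicate 1 it had 2.58 and -0.95, the same direction. PCR1 (plant cadmium resistance 1) had 6.02 in Col-0 and 2.06 in AvSAMS1 TF, with -2.44 and -3.16 on replicate 1, CHX2, a cation/H+ exchanger family member, had 3.19 and -1.39, At3g53980 had 3.21 and -0.90, and At3g49340 had 2.02 and -2.25. At the other end were At1g70080 (-2.54 and 2.12), At1g62240 (-0.59 and 3.45), AGP14, an arabinogalactan protein (-3.11 and 0.51), PP2-B6 (-0.05 and 3.51) and CYP705A5, the thalian-diol desaturase (-1.62 and 1.89). On replicate 1 the difference was reversed for AGP14 (-2.60) and PP2-B6 (-2.95) and was 0.06 for At3g53980, with 3.52 and 3.58. At1g70080, At1g62240, CYP705A5, CHX2 and At3g49340 were not above background in either channel of AvSAMS1 TF replicate 1. Of 124 such loci measured on both replicate 1 arrays, 66 (53.2%) had a line difference of the same sign there, against 54.9% of all loci.

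A further 259 loci were well above background only in the Al-treated plants of both lines and 126 only in the untreated. For these only a bound can be given, from the background-corrected and between-array normalized channels, and it is open to dye bias. At5g38910 had processed signals of 2964 and 3359 in Al-treated Col-0 and AvSAMS1 TF against 17.8 and 12.1 in untreated plants, which were not well above background, and was at least 27.3-fold higher. At3g13630 was at least 6.21-fold, At3g10430 at least 5.78-fold and At1g61080 at least 4.62-fold higher. In the untreated plants, At1g07560, At1g50580, At4g31320 (SAUR37) and the transcription factor gene MYB40 were seen, at least 2.44-fold, 2.50-fold, 2.20-fold and 2.27-fold lower with Al.

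At the 2-fold limit, the members just inside were NAT8 (1.42 and 1.00) and At1g68820 (1.00 and 1.37) among the induced, and NP3 (-1.0 and -1.22) and FLS1 among the repressed. Just outside were PSK4 (1.71 and 1.00), At5g11680 (1.00 and 1.11), HMA2 (-1.0 and -1.21) and DREB26 (-1.0 and -1.28), each of which has 1 array within rounding of the limit.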

How the data were processed

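Total RNA was labelled and hybridised by the authors to Agilent arrays, which were read with Agilent Feature Extraction (10.7.3.1 per the labels; the file headers give 10.7.1.1 for the replicate 2 arrays and 11.0.1.1 for replicate 1). The deposited files hold for each spot the log10 of the Cy5 to Cy3 ratio, as the authors' scanner software gave it after background subtraction and dye correction, a p-value of that ratio from the error model of 1 array, and the processed intensity of each channel. The deposited series table holds log2 ratios made by the authors, which correlated with the scanner ratios at 0.983 or more on each array, and served as an alternative. The number of arrays limits the precision.

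Ratios were converted to the log2 scale and averaged over the spots of a probe, without control spots and without the 10 to 23 spots that the software marked as outliers on an array. Of 43603 probes, 34447 were paired through RefSeq accessions to 25455 loci of TAIR10.1. The mean of both lines on the replicate 2 slide was tested with limma 3.58.1 in R 4.3.3 (lmFit and eBayes, Benjamini-Hochberg, adjusted p of 0.05). Adjusted p-values and SE in the text come from this fit unless stated. The line difference was not tested. The fit was also run on simulated arrays, drawn with independent errors from its own variance estimates. Since these hold no effect of slide, dye or line, that run cannot show how such effects bear on the p-values. Lists of 27 gene groups were described by counts and medians. The gene lists and the loci described were chosen with earlier results of these data known.

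Named genes were the 12 induced and the 12 repressed loci with the largest mean, up to 4 members per list with the largest mean past 2-fold plus members that define the pathway, the 5 highest and the 5 lowest line differences, 2 loci on each side of the limit, 4 loci seen in 1 condition only in each direction, 8 loci opposite on replicate 1, and At2g37620. The labels number the arrays of each line 1 and 2 and do not say what else the number stands for. The study's methods describe 2 independent RNA sets, each from a different pool of plants. After the mean of each line was subtracted, same-numbered arrays correlated at 0.44 across probes. With 2 arrays per line this value is the same for both replicate numbers by construction, so it cannot show pairing within replicate 1. Without the subtraction, r between the lines over the probes kept was 0.80 on replicate 2 and 0.19 on replicate 1. Alternatives were normexp (offset of 50) with loess or with median centring, the series table, centring, other filters and fold limits, an intensity trend, a one-sample t-test, and fits of 4 arrays. The search for motifs in promoters was not run, and no sequences were used here.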

Additional observations from a re-analysis of the deposited data

Results flagged for a closer look

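Of the loci named by rule, 10 had both arrays of replicate 2 on one side of 0 and both arrays of replicate 1 on the other. The mean of replicate 2 minus the mean of replicate 1, on the log2 scale, was 7.94 for At1g14550, 6.84 for PCR1 (At1g14880), 5.81 for At1g26410, 5.61 for PCC1 (At3g22231), 5.48 for At5g37840 and 5.36 for At4g28460. It was -6.81 for FTM1 (At1g43800), -5.08 for SBT4.12 (At5g59090), -2.55 for NP3 (At3g06030) and -1.89 for HMA2 (At4g30110). Of these, 8 were chosen because they were opposite on replicate 1. With limma the 8 that could be tested had adjusted p from 0.275 (PCR1, PCC1, At1g26410 and At1g14550) to 0.326 (SBT4.12), and the difference was not tested for FTM1 and NP3, which did not pass the background filter on all 4 arrays.

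Another 2 loci were flagged by the sign of their ratios, with both Col-0 arrays on one side of 0 and both AvSAMS1 TF arrays on the other. The mean of AvSAMS1 TF minus that of Col-0 was -4.24 for NATA1, which was higher with Al in Col-0 and lower in AvSAMS1 TF on both replicates. It was 0.46 for ACT1, the internal control of the study, whose Col-0 ratios were -0.30 and -0.50 on replicates 2 and 1, against 0.00 and 0.11 for AvSAMS1 TF. The ACT1 signal in AvSAMS1 TF of replicate 2 was 5077 without and 5079 with Al, so its side of 0 is not settled there. Neither difference was tested.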

How the results depend on the processing

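The counts of calls depended on the processing, and so did some calls of the 50 loci named by rule. Of their 550 values from settings with a test, 392 kept their side of the threshold, 145 lost the call and 13 gained it. The sign changed in 4 of these values, at 3 loci that were not called, CYP705A5 (0.13 against -0.16 and -0.21 under both normexp settings), At3g49340 (-0.11 against 0.03 under normexp and loess) and ACT1 (-0.15 against 0.25 under normexp and median centring). With 1 array left out, which allows no test, the sign changed at 9 of the 50 loci, all of them chosen for their line difference, such as NATA1 (2.06 against -0.41 without Col-0). Against 1841 probes higher and 1933 lower on the replicate 2 slide, normexp and loess gave 2887 higher, normexp and median centring 9321 higher (79.1% of its calls, against 48.8%), the intensity trend 2860 higher and 3174 lower, and the filter on at least 1 channel 755 and 498 (60.3% higher). Without a filter 0 and 0 were called (12167 of 43592 probes at an unadjusted p under 0.05), and the one-sample t-test called 2 and 1 after Benjamini-Hochberg (4778 unadjusted). In the paired fit of 4 arrays with the replicate block 0 higher and 0 lower were called (2852 unadjusted), and with 1 coefficient per replicate number 0 and 0 (2979 unadjusted). Against 831 induced and 636 repressed loci, no filter gave 1283 and 980, a 1.5-fold limit 1763 and 1710, a 4-fold limit 262 and 100, normexp and loess 328 repressed, and normexp and median centring 206 repressed. With 1 array left out the counts were 1199 to 1360 induced and 1036 to 1261 repressed. For replicate 2 minus replicate 1, where 0 and 0 were called, leaving out 1 array of replicate 1 gave 0 to 5320 higher and 0 to 5120 lower, with the lone array assumed to vary like the others; without AvSAMS1 TF replicate 1 there were 0 calls and 7687 probes at an unadjusted p under 0.05, and without the line block 0 and 3071. No spot was saturated, so leaving out saturated spots changed no value, and the series table changed no count. The cause of these differences was not tested.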
